A study of Mus musculus with 9 samples.

Results

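Glutamate receptors carry most synaptic excitation in the retina, and GABA and glycine receptors carry most synaptic inhibition. The genes described here encode the subunits of these receptors. They were chosen by gene symbol alone, as the AMPA (Gria), kainate (Grik), NMDA (Grin) and metabotropic (Grm) glutamate receptor genes and the GABA-A and GABA-C (Gabr), GABA-B (Gabbr) and glycine (Glra and Glrb) receptor genes. Of the 15228 genes of the deposited table, 30 matched this rule and 27 are described, 16 subunits of glutamate receptors, called excitatory here, and 11 subunits of GABA or glycine receptors, called inhibitory. All counts, medians and sums of receptor genes cover these 27. A further 20 subunit genes of these families, among them Grin2a, Glra1 and Glra3, are not listed in that table and were not analysed here. Of these, 8 are excitatory and 12 inhibitory. RNA was sequenced from cells sorted as retinal ganglion cells (RGCs) of wild-type (WT) C57BL/6J mice of both sexes, operated on at 6 to 8 weeks of age. The Ctrl group came from intact retinas. The ONC group came from retinas taken 3 d after optic nerve crush with an intraocular injection of vehicle, named PBS in the labels. The TPEN group came from retinas taken 3 d after the same crush, with 3 μL of 100 μM TPEN injected into the eye directly after the injury. TPEN is a membrane-permeable chelator that binds zinc with high affinity. Each group had 3 libraries. The comparison of Ctrl with ONC asks how the receptor genes differed after crush with a vehicle injection, and that of TPEN with ONC asks what zinc chelation changed after injury. No injection is described for Ctrl, so crush and injection cannot be told apart in ONC/Ctrl or TPEN/Ctrl.

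As background, photoreceptors and bipolar cells release glutamate, and amacrine and horizontal cells release GABA or glycine. RGCs receive glutamate from bipolar cells through AMPA, kainate and NMDA receptors, and GABA and glycine from amacrine cells. ON bipolar cells sense the glutamate of photoreceptors through the metabotropic receptor mGluR6. Zinc is stored in the synaptic vesicles of some neurons and binds directly to several of these receptors, among them NMDA, GABA-A, GABA-C and glycine receptors.

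Levels are given as RPKM, the reads of a gene scaled to its exon length and to the library's total, so that levels of different genes can be compared. Library totals were 20077226 to 23109754 reads in Ctrl, 22967138 to 22986065 in ONC and 19946993 to 22217283 in TPEN. The cells sorted as RGCs held much RNA of other retinal cells. Gnat1, a rod gene, ranked 2 of 15228 genes by mean level, while the 12 listed RGC markers ranked from 153 (Nefl, a neurofilament gene) to 14252 (Pou4f1), with Thy1 at 6283, Tubb3 at 7783 and Rbpms at 13805. RGCs here means the cells that the sort gate kept. Fewer cells of a type and less RNA per cell cannot be told apart in these bulk libraries. The sources used here do not say which mice each library was made from, so p-values measure only the spread between libraries, which may be technical.

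The promoters of 3 AMPA or kainate subunit genes, whose transcripts had the largest called changes in ONC/Ctrl or TPEN/ONC among receptor genes whose mean reached 0.5 RPKM, are shown with matches to the core of the metal response element (MRE) in capitals. The MRE is the DNA site bound by MTF1, a zinc-sensing transcription factor. Each sequence is the 250 bases before the annotated start, written 5′ to 3′ on the strand of the gene, from RefSeq on GRCm38.p6. The core was searched as TGCNCNC on both strands.
Grik3 (GRCm38.p6, chr4:125490446-125490695, plus strand): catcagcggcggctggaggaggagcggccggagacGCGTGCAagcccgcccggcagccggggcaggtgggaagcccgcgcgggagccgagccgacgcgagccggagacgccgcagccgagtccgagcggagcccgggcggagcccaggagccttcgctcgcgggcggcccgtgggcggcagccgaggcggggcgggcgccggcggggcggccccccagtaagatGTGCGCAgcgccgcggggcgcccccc
Gria4 (GRCm38.p6, chr9:4796235-4796484, minus strand): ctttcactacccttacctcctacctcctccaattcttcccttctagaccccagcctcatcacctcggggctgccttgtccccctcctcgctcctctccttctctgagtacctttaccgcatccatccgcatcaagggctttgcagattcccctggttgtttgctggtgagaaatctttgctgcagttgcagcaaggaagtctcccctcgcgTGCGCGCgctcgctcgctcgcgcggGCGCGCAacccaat
Gria2 (GRCm38.p6, chr3:80802836-80803085, minus strand): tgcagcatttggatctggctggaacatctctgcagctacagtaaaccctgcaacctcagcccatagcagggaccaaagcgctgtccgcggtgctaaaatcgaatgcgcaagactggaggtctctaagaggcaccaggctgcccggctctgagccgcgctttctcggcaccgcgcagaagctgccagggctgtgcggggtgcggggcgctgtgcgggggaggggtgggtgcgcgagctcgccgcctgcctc
The promoters of Grik3 and Gria4 each held 2 matches, and that of Gria2 held 0. Matching windows were given for 21 of the 27 receptor genes, and 12 of those 21 held at least 1 match, beside 43.8% of all 27018 promoters. A match is a description of these letters and no evidence of binding, and the absence of a match says only that the letters do not occur in this window.

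The receptor subunits were weakly expressed in these cells. Their mean levels over the 9 libraries ran from 0.0467 RPKM (Grin2b) to 8.48 RPKM (Gabbr1), with a median of 0.558 RPKM, beside 4.10 RPKM over all genes. The filter used for the main test, a mean of at least 0.5 RPKM, kept 16 of the 27 genes, 11 excitatory and 5 inhibitory. The other 11 (40.7%, beside 10.9% of all genes) had means from 0.0467 to 0.498 RPKM, or 8 to 78 reads in a library. These 11 were Gria3, Grik2, Grin2b, Grin3a, Grm5, Gabra2, Gabrb1, Gabrg3, Gabrr3, Glra2 and Glrb, and they were tested in a fit without the filter. The counting error of their values is large. Gabbr1 (8.48 RPKM) and Grm8 (4.32 RPKM) had the highest level of the inhibitory and the excitatory subunits.

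**Figure D1:**
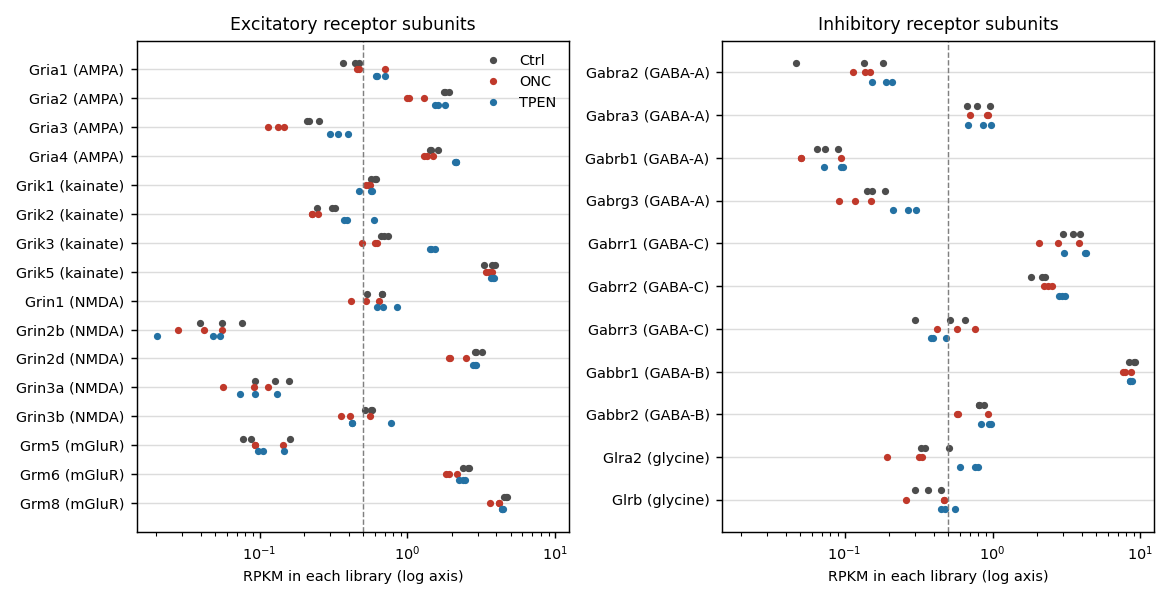
RPKM in each library (log axis) of the 16 excitatory subunits, left, and the 11 inhibitory subunits, right, with 1 point per library and the dashed line at 0.5 RPKM, the filter of the main test. Gria3, Grik3 and Glra2 show TPEN libraries apart from ONC libraries, and most subunits lie below 1 RPKM.

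Several receptor subunits were lower in ONC than in Ctrl or higher in TPEN than in ONC, and 0 moved the opposite way past the test. With limma on log2(RPKM + 0.1) and Benjamini-Hochberg adjustment over 13566 genes, a gene rose or fell where its adjusted p was under 0.05. SE is the standard error of a log2 fold change. In ONC/Ctrl, 3 receptor genes fell and 0 rose, beside 6.97% of all tested genes that fell and 11.7% that rose. The 3 genes were excitatory: Gria2, Grin2d and Grm6. After quantile normalization these background shares were 10.5% and 9.3%, and 4 excitatory genes fell. Grm8 then passed as well, at an adjusted p of 0.0499 by limma. In TPEN/ONC, 4 receptor genes rose and 0 fell, where 3.24% of all tested genes rose and 4.14% fell, or 3.94% and 3.37% after quantile normalization. These were the excitatory Gria2, Gria4, Grik3 and Grin2d. In TPEN/Ctrl, 3 receptor genes rose (Gria4, Grik3 and Gabrr2) and 0 fell, where 8.36% of all tested genes rose and 5.01% fell, or 6.63% and 6.12% after quantile normalization. Without adjustment, limma gave p under 0.05 for 5, 6 and 4 receptor genes in ONC/Ctrl, TPEN/ONC and TPEN/Ctrl. The share of all tested genes under this unadjusted threshold is not given here, so these counts cannot be set against it. Counted as DEGs, which also need a fold change of at least 1.5, Gria2 was lower in ONC/Ctrl, beside 0.752% of tested genes, Gria4 and Grik3 were higher in TPEN/ONC, beside 0.818%, and Grik3 was higher in TPEN/Ctrl, beside 3.45%. ONC/Ctrl and TPEN/ONC share the ONC libraries, so a change of opposite sign in the pair of comparisons is in part fixed by those libraries.

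Over all 27 genes, whether or not they passed the filter, the ONC mean was the lowest of the 3 groups for 18 (66.7%), beside 31.5% of all 15228 genes. The TPEN mean was above the ONC mean for 23 (85.2%), beside 47.5%, and the ONC mean was below the Ctrl mean for 20 (74.1%), beside 45.7%. The 3 ONC libraries lay below the 3 Ctrl libraries, with no overlap, for 7 receptor genes and above them for 0, where 14.9% and 21.3% of all genes did so. The TPEN libraries lay above the ONC libraries for 12 receptor genes and below them for 0, beside 12.5% and 15.6% of all genes. Against Ctrl, the TPEN libraries lay above for 8 and below for 1, Grm8, beside 19% and 12.4%.

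**Figure D2:**
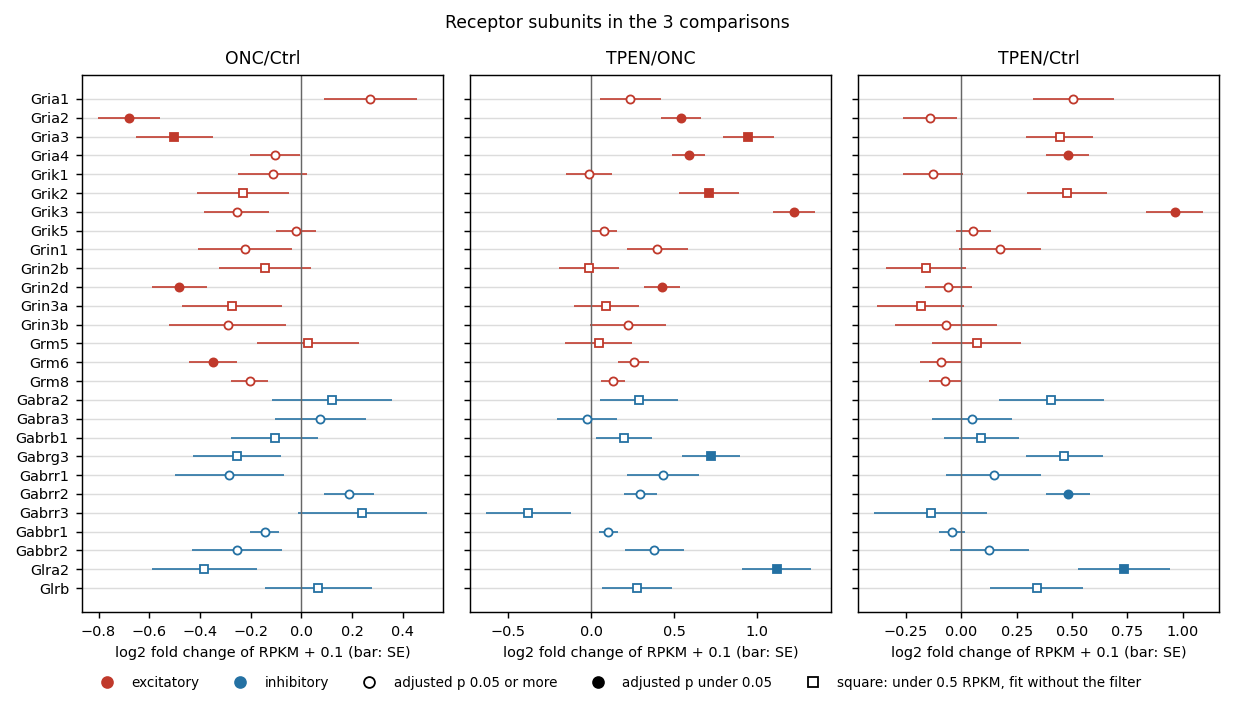
Log2 fold change of RPKM + 0.1 with its standard error for the 27 receptor genes in ONC/Ctrl, TPEN/ONC and TPEN/Ctrl, with excitatory subunits in red, inhibitory subunits in blue, filled symbols for an adjusted p under 0.05, and squares for the 11 genes under 0.5 RPKM from the fit without the filter. The excitatory symbols lie mostly below 0 in ONC/Ctrl and both classes mostly above 0 in TPEN/ONC.

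AMPA receptors carry fast excitation. Their GluA2 subunit, encoded by Gria2 on chromosome 3 (80681450 to 80802835, minus strand), makes the channel nearly impermeable to calcium and zinc. Positions are on GRCm38.p6. Gria2 was measured at 1.90, 1.81 and 1.77 RPKM in the Ctrl libraries, 0.999, 1.02 and 1.30 RPKM in ONC and 1.54, 1.60 and 1.81 RPKM in TPEN. All ONC libraries lay below all Ctrl and all TPEN libraries, while the TPEN and Ctrl libraries overlapped. Gria2 fell in ONC/Ctrl at a log2 fold change of -0.68 (SE 0.12 and adjusted p = 0.00359 by limma) and rose in TPEN/ONC with one of 0.54 (SE 0.12 and adjusted p = 0.0267 by limma). Its log2 difference in TPEN/Ctrl was -0.14 (SE 0.12 and adjusted p = 0.518 by limma). The decrease in ONC/Ctrl passed the threshold without any 1 of the 9 libraries. The increase in TPEN/ONC did not, with limma adjusted p of 0.0960 and 0.0947 without ONC replicate 1 or 2 and of 0.0519, 0.0642 and 0.0989 without TPEN replicate 1, 2 or 3.

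Gria4, which encodes the GluA4 subunit, lies on chromosome 9 (4417896 to 4796234, minus strand) and was the most abundant AMPA subunit by mean level, with 1.61, 1.41 and 1.45 RPKM in the Ctrl libraries, 1.50, 1.30 and 1.35 RPKM in ONC and 2.12, 2.13 and 2.11 RPKM in TPEN. The TPEN libraries stood above those of both other groups, which overlapped each other. Gria4 rose in TPEN/ONC, by a log2 fold change of 0.59 (SE 0.098 and adjusted p = 0.00690 by limma), and in TPEN/Ctrl, by 0.48 (SE 0.098 and adjusted p = 0.0102 by limma), while ONC/Ctrl gave -0.10 (SE 0.098 and adjusted p = 0.521 by limma). Its increase in TPEN/ONC stood just inside the fold change of 1.5 that defines a DEG, at a ratio of means of 1.53. Both calls passed without any 1 library. The GluA3 gene Gria3, on chromosome X (41400854 to 41678601, plus strand), lay under the filter, with 0.253, 0.211 and 0.217 RPKM in the Ctrl libraries, 0.132, 0.146 and 0.115 RPKM in ONC and 0.340, 0.301 and 0.397 RPKM in TPEN. Its groups did not overlap in any of the 3 comparisons: ONC was lowest and TPEN highest. In the fit without the filter, Gria3 fell in ONC/Ctrl, at a log2 fold change of -0.50 (SE 0.15 and adjusted p = 0.0447 by limma), and rose in TPEN/ONC, with one of 0.95 (SE 0.15 and adjusted p = 0.00533 by limma). The increase, a ratio of means of 2.64, passed without any 1 library. The decrease was lost without any 1 of the 9 libraries (limma adjusted p = 0.0514 to 0.136), and the limma voom fit on reads gave it an adjusted p of 0.0334. Gria1, for GluA1, had 0.443, 0.365 and 0.470 RPKM in the Ctrl libraries, 0.706, 0.454 and 0.468 RPKM in ONC and 0.613, 0.618 and 0.705 RPKM in TPEN, and passed the threshold in 0 of the 3 comparisons, with log2 differences of 0.27, 0.23 and 0.51 in ONC/Ctrl, TPEN/ONC and TPEN/Ctrl.

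Gria2 made up the largest share of AMPA subunit RNA in Ctrl. As a share of the summed RPKM of the 4 AMPA genes, Gria2 made up 46.0% ± 1.38 in Ctrl, 35.1% ± 5.14 in ONC and 34.6% ± 1.37 in TPEN (SD, n = 3). Each Ctrl library had a larger Gria2 share than each ONC or TPEN library, and the ONC and TPEN libraries overlapped. The Gria4 share was 37.6% ± 0.700 in Ctrl, 43.7% ± 1.73 in ONC and 44.6% ± 2.24 in TPEN. The summed AMPA level was 3.97 ± 0.213 RPKM in Ctrl, 3.16 ± 0.214 in ONC and 4.76 ± 0.226 in TPEN, with no overlap between any groups.

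**Figure D3:**
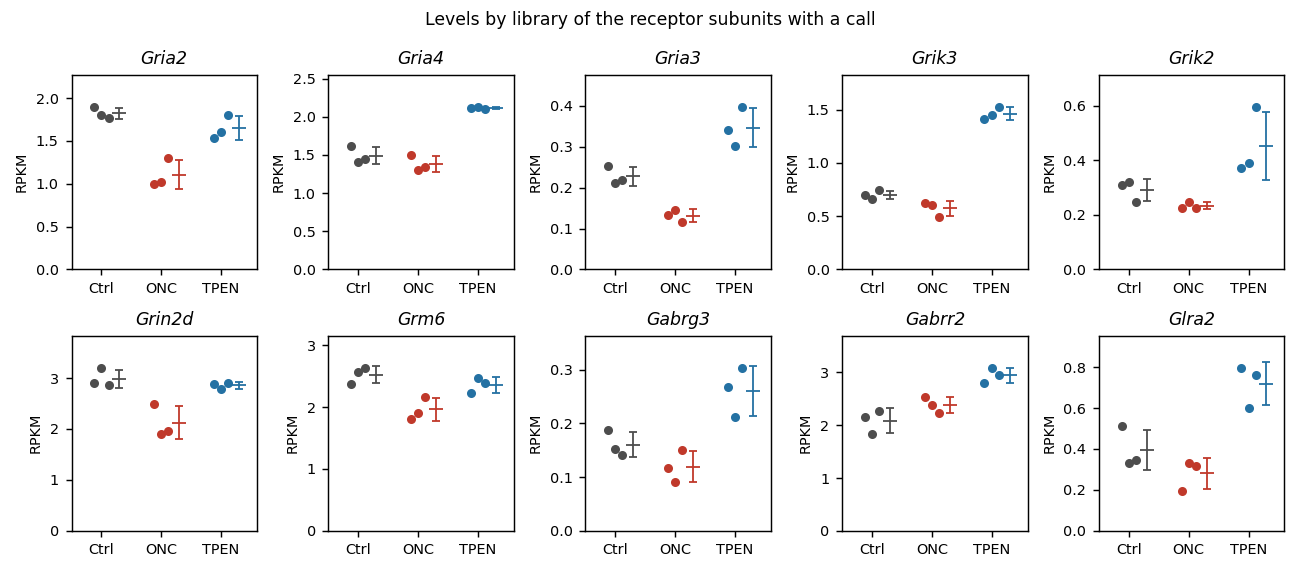
RPKM in each library of the 10 receptor genes that passed the threshold in the test with the filter or in the fit without the filter, with points for the 3 libraries of each group and a bar for their mean and SD. Grik3 and Gria4 have TPEN libraries above both other groups, while the ONC libraries of Gria2 and Grin2d lie below both.

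Among the kainate receptor genes, Grik3 had the largest change of the 16 receptor genes that passed the filter. Grik3, on chromosome 4 (125490700 to 125714173, plus strand), encodes GluK3, a kainate subunit of low glutamate affinity. It measured 0.696, 0.665 and 0.744 RPKM in the Ctrl libraries, 0.625, 0.607 and 0.490 RPKM in ONC and 1.41, 1.45 and 1.53 RPKM in TPEN. The TPEN libraries, at 1.41 to 1.53 RPKM, lay apart from the other libraries, at 0.490 to 0.744 RPKM. Grik3 rose in TPEN/ONC, by a log2 fold change of 1.22 (SE 0.13 and adjusted p = 5.9e-04 by limma), and in TPEN/Ctrl, by 0.96 (SE 0.13 and adjusted p = 9.0e-04 by limma). These are ratios of means of 2.55 and 2.09. The ONC libraries lay below the Ctrl libraries without overlap, but the difference did not pass the threshold, at -0.26 (SE 0.13 and adjusted p = 0.209 by limma). Both increases passed without any 1 library.

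Grik5, for the GluK5 subunit that raises the glutamate affinity of kainate receptors, was the most abundant kainate gene, with 3.64 ± 0.306 RPKM in Ctrl against 3.57 ± 0.158 RPKM in ONC, with 3.77 ± 0.0775 RPKM in TPEN (SD, n = 3). The libraries of all groups overlapped, and its log2 differences were -0.022, 0.077 and 0.054 in ONC/Ctrl, TPEN/ONC and TPEN/Ctrl, with standard errors of 0.078. Grik2, under the filter, measured 0.309, 0.321 and 0.247 RPKM in the Ctrl libraries, 0.226, 0.248 and 0.226 RPKM in ONC and 0.372, 0.390 and 0.596 RPKM in TPEN. It rose in TPEN/ONC in the fit without the filter, by 0.71 (SE 0.18 and adjusted p = 0.0434 by limma), but the limma voom fit on reads gave an adjusted p of 0.0574. The call without the filter was lost without any 1 library other than Ctrl replicate 3 (limma adjusted p = 0.0539 to 0.125), and TPEN replicate 3 was the highest of the 9 libraries. Grik1 had means of 0.595 ± 0.0220 RPKM, 0.542 ± 0.0189 RPKM and 0.538 ± 0.0584 RPKM in Ctrl, ONC and TPEN and did not pass the threshold in any comparison. Its ONC libraries (0.521 to 0.557 RPKM) lay below its Ctrl libraries (0.570 to 0.613 RPKM) without overlap. The log2 difference was -0.11 (SE 0.14 and adjusted p = 0.626 by limma), or -0.30 after quantile normalization. Within the summed RPKM of the 4 kainate genes, the Grik3 share was 13.4% ± 0.252 in Ctrl, 11.7% ± 1.45 in ONC and 23.5% ± 0.192 in TPEN, and the Grik5 share 69.5% ± 1.79, 72.6% ± 1.12 and 60.6% ± 0.773.

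**Figure D4:**
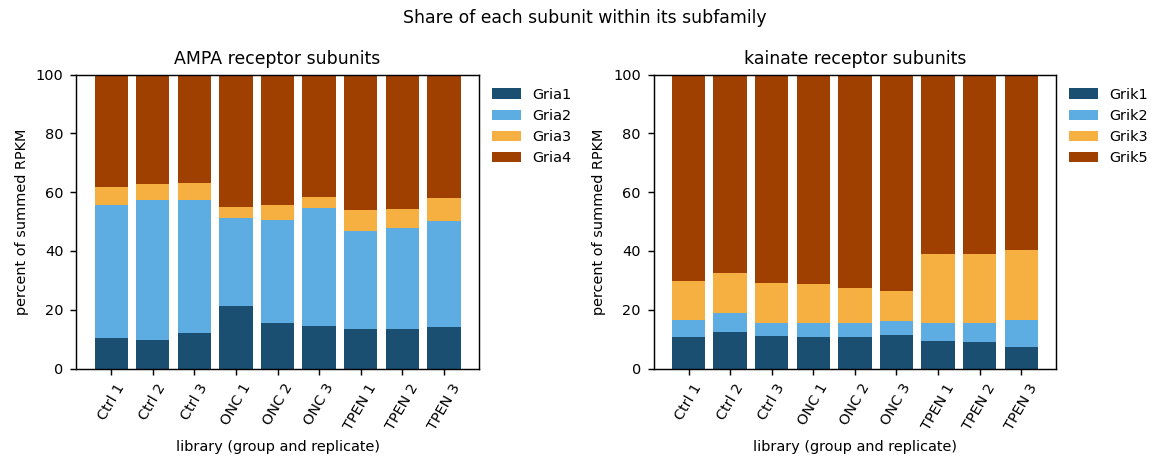
Share of each subunit in the summed RPKM of the 4 AMPA genes, left, and the 4 kainate genes, right, as stacked bars that reach 100% in each of the 9 libraries. The Gria2 share is largest in the 3 Ctrl libraries, and the Grik3 share is 23.3% to 23.7% in the TPEN libraries and 10.2% to 13.6% in the other libraries.

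NMDA receptors need the GluN1 subunit, encoded by Grin1, together with GluN2 or GluN3 subunits, and GluN2 subunits set how sensitive the channel is to magnesium and zinc. The level of Grin2d, the most abundant NMDA subunit gene here, on chromosome 7 (45831883 to 45878378, minus strand), was 2.89, 3.19 and 2.86 RPKM in the Ctrl libraries, 2.50, 1.91 and 1.96 RPKM in ONC and 2.89, 2.78 and 2.91 RPKM in TPEN. The ONC libraries lay below the libraries of both other groups. Grin2d fell in ONC/Ctrl, at a log2 fold change of -0.48 (SE 0.11 and adjusted p = 0.0121 by limma), and rose in TPEN/ONC, by 0.42 (SE 0.11 and adjusted p = 0.0452 by limma), with -0.058 (SE 0.11 and adjusted p = 0.789 by limma) in TPEN/Ctrl. The decrease passed without any 1 library. The increase in TPEN/ONC was near the threshold: it passed without ONC replicate 1 but not without any other 1 library, where the limma adjusted p ran from 0.0545 (without Ctrl replicate 3) to 0.144 (without ONC replicate 2). Grin2d overlaps the listed gene Gm45441 on the opposite strand for 643 of its exon bases, and whether the counting used strand is not given in the sources used here, so its reads are uncertain. Grin1, which overlaps Grin1os in the same way, measured 0.534, 0.674 and 0.673 RPKM in the Ctrl libraries, 0.525, 0.642 and 0.413 RPKM in ONC and 0.856, 0.622 and 0.687 RPKM in TPEN. Its groups overlapped in all 3 comparisons and its adjusted p was between 0.247 and 0.608 in limma. Grin3b (means 0.553, 0.440 and 0.541 RPKM in Ctrl, ONC and TPEN), Grin3a and Grin2b did not pass the threshold in any comparison. The reads of Grin3b are uncertain too, since it overlaps Tmem259 on the opposite strand for 1059 of its 3296 exon bases. Grin2b, the GluN2B gene, was the receptor gene with the lowest level, at 0.0202 to 0.0762 RPKM.

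Metabotropic glutamate receptors signal through G proteins. Grm6, on chromosome 11 (50850685 to 50866208, plus strand), encodes mGluR6, the glutamate receptor of ON bipolar cells, and measured 2.37, 2.57 and 2.63 RPKM in the Ctrl libraries, 1.81, 1.91 and 2.17 RPKM in ONC and 2.22, 2.47 and 2.39 RPKM in TPEN. The ONC libraries lay below all Ctrl and TPEN libraries. Grm6 fell in ONC/Ctrl, at a log2 fold change of -0.35 (SE 0.095 and adjusted p = 0.0304 by limma), and TPEN/ONC gave 0.25 (SE 0.095 and adjusted p = 0.148 by limma). The call in ONC/Ctrl was lost without Ctrl replicate 2 or 3 (limma adjusted p = 0.0869 and 0.0860) or ONC replicate 1 or 2 (0.105 and 0.0884), and Grm6 overlaps Gm12660 on the opposite strand. Grm8, for a presynaptic receptor that limits transmitter release, had the highest level of the excitatory subunits, with 4.70, 4.62 and 4.49 RPKM in the Ctrl libraries, 3.61, 4.17 and 4.18 RPKM in ONC and 4.36, 4.34 and 4.41 RPKM in TPEN. Its groups did not overlap in any comparison, in the order ONC, TPEN, Ctrl. The differences were small, at log2 values of -0.20 (ONC/Ctrl) and 0.13 (TPEN/ONC). The limma adjusted p in ONC/Ctrl was 0.0776, beside 0.0137 in the voom fit and 0.0499 after quantile normalization. Grm5 was under the filter, at 0.0778 to 0.160 RPKM over the 9 libraries.

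Ionotropic GABA-A receptors are chloride channels made of alpha, beta and other subunits. The alpha subunit gene Gabra3, at a mean of 0.830 RPKM over the 9 libraries, had overlapping groups, with means of 0.804, 0.850 and 0.836 RPKM in Ctrl, ONC and TPEN. Its log2 difference was 0.075 (SE 0.18 and adjusted p = 0.823 by limma) in ONC/Ctrl and -0.026 (SE 0.18 and adjusted p = 0.957 by limma) in TPEN/ONC. Among subunits under the filter, Gabrg3, for gamma3, had 0.187, 0.152 and 0.142 RPKM in the Ctrl libraries, 0.117, 0.0912 and 0.150 RPKM in ONC and 0.268, 0.211 and 0.302 RPKM in TPEN. It rose in TPEN/ONC in the fit without the filter, by 0.72 (SE 0.17 and adjusted p = 0.0342 by limma), a call that was lost without Ctrl replicate 2, ONC replicate 1 or 2 or TPEN replicate 1 or 3 (limma adjusted p = 0.0529 to 0.118). The TPEN libraries of Gabrg3 lay above those of both other groups. Gabra2, for an alpha subunit, and Gabrb1, for a beta subunit, did not pass the threshold in any comparison, at 0.0467 to 0.210 RPKM.

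GABA-C receptors, a slow kind of GABA channel typical of bipolar cells, are encoded by Gabrr1, Gabrr2 and Gabrr3. Gabrr2, on chromosome 4 (33062999 to 33095865, plus strand), had 2.16, 1.83 and 2.27 RPKM in the Ctrl libraries, 2.54, 2.38 and 2.23 RPKM in ONC and 2.80, 3.08 and 2.95 RPKM in TPEN. The TPEN libraries lay above those of both other groups. Gabrr2 rose in TPEN/Ctrl, by a log2 fold change of 0.48 (SE 0.10 and adjusted p = 0.0114 by limma), while TPEN/ONC gave 0.29 (SE 0.10 and adjusted p = 0.117 by limma) and ONC/Ctrl 0.19 (SE 0.10 and adjusted p = 0.238 by limma). Unlike most subunits it was not lowest in ONC. The call passed without any 1 library. Its neighbour on chromosome 4, Gabrr1, was more abundant and more variable, with 3.47, 3.92 and 2.98 RPKM in the Ctrl libraries, 2.06, 2.78 and 3.85 RPKM in ONC and 4.31, 4.23 and 3.05 RPKM in TPEN. The groups overlapped and the log2 difference in TPEN/ONC was 0.43 (SE 0.21 and adjusted p = 0.279 by limma). Gabrr3 lay between 0.301 and 0.762 RPKM over the 9 libraries, on at most 29 reads.

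GABA-B receptors are G protein-coupled dimers of the products of Gabbr1 and Gabbr2. Gabbr1 had the highest level of all receptor genes, with 9.02, 9.13 and 8.40 RPKM in the Ctrl libraries, 7.60, 7.82 and 8.58 RPKM in ONC and 8.55, 8.45 and 8.76 RPKM in TPEN, and Gabbr2 averaged 0.833 ± 0.0412 RPKM, 0.699 ± 0.206 RPKM and 0.920 ± 0.0764 RPKM in Ctrl, ONC and TPEN (SD, n = 3). The groups of both genes overlapped in every comparison. The log2 difference of Gabbr1 in ONC/Ctrl was -0.15 (SE 0.059 and adjusted p = 0.124 by limma), with an adjusted p of 0.0428 in the voom fit, and that of Gabbr2 was -0.25 (SE 0.18 and adjusted p = 0.373 by limma). Glycine receptors are chloride channels of alpha subunits and the beta subunit encoded by Glrb. Glra2, for alpha2, on chromosome X (165129017 to 165327393, minus strand), lay under the filter, with 0.510, 0.330 and 0.348 RPKM in the Ctrl libraries, 0.193, 0.332 and 0.318 RPKM in ONC and 0.794, 0.600 and 0.764 RPKM in TPEN. The TPEN libraries lay above those of both other groups, which overlapped each other. In the fit without the filter, Glra2 rose in TPEN/ONC, by a log2 fold change of 1.12 (SE 0.21 and adjusted p = 0.0111 by limma), and in TPEN/Ctrl, by 0.73 (SE 0.21 and adjusted p = 0.0444 by limma). Its ratio of means in TPEN/ONC was 2.56, near that of Grik3. The limma voom fit gave adjusted p of 0.00353 and 0.0412. The increase over ONC passed without any 1 library, while that over Ctrl was lost without any 1 library other than Ctrl replicate 1 or ONC replicate 1 (limma adjusted p = 0.0531 to 0.131). Glrb, for the subunit that anchors synaptic glycine receptors, had 0.364, 0.297 and 0.449 RPKM in the Ctrl libraries, 0.262, 0.468 and 0.468 RPKM in ONC and 0.559, 0.445 and 0.474 RPKM in TPEN, and passed the threshold in 0 comparisons.

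The ONC mean was below the Ctrl mean for 14 of 16 excitatory (87.5%) and 6 of 11 inhibitory genes (54.5%). The TPEN mean was above the ONC mean for 14 of 16 (87.5%) and 9 of 11 (81.8%). Against Ctrl, the TPEN mean was higher for 8 of 16 excitatory and 9 of 11 inhibitory genes, beside 54.8% of all genes. Members are not replicates, and the difference between the classes was not tested. In ONC/Ctrl the median log2 fold change in the fit without the filter was -0.23 over the 16 excitatory and -0.11 over the 11 inhibitory genes, where that of all genes was 0.020. In TPEN/ONC the medians were 0.24 and 0.29 (all genes -0.011), and in TPEN/Ctrl -0.0018 and 0.15 (all genes 0.021). Over the genes that passed the filter, 11 excitatory and 5 inhibitory, the medians were -0.22 and -0.15 for ONC/Ctrl, then 0.25 and 0.29 for TPEN/ONC, then -0.058 and 0.13 for TPEN/Ctrl. The fit without the filter called 4 excitatory and 0 inhibitory genes lower in ONC/Ctrl, beside 6.43% of all genes, 6 and 2 higher in TPEN/ONC, beside 3.15%, and 2 and 2 higher in TPEN/Ctrl, beside 8.92%. The limma voom fit on reads called 5 and 1 lower in ONC/Ctrl, beside 8.81%, 5 and 2 higher in TPEN/ONC, beside 5.38%, and 2 and 2 higher in TPEN/Ctrl, beside 11%.

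The summed level of the 16 excitatory genes was 20.8, 20.7 and 20.8 RPKM in the Ctrl libraries, 17.4, 17.3 and 17.3 RPKM in ONC and 21.6, 21.7 and 22.9 RPKM in TPEN. That of the 11 inhibitory genes was 18.1, 18.2 and 16.6 RPKM in Ctrl, 15.3, 16.2 and 17.8 RPKM in ONC and 20.0, 19.3 and 18.6 RPKM in TPEN. The ONC libraries had the lowest excitatory sums with a gap to both other groups, while the inhibitory sums of Ctrl and ONC overlapped and those of TPEN were the highest. Over the 5 inhibitory genes that passed the filter, the TPEN sums (16.4 to 17.6 RPKM) overlapped the Ctrl sums (15.1 to 16.5 RPKM). The ratio of the excitatory to the inhibitory sum was 1.18 ± 0.0630 in Ctrl, 1.06 ± 0.0834 in ONC and 1.15 ± 0.0751 in TPEN (SD, n = 3), and the libraries of the 3 groups overlapped. Grm6 and Grm8 count as excitatory here although mGluR6 and mGluR8 couple to inhibitory G proteins. With the 13 ionotropic glutamate receptor genes in place of the 16 excitatory genes, the ratio was 0.769 ± 0.0447, 0.693 ± 0.0817 and 0.791 ± 0.0579, again with overlap. The sums are led by a few genes: Gabbr1 made up 42.8% to 50.5% of the inhibitory sum.

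**Figure D5:**
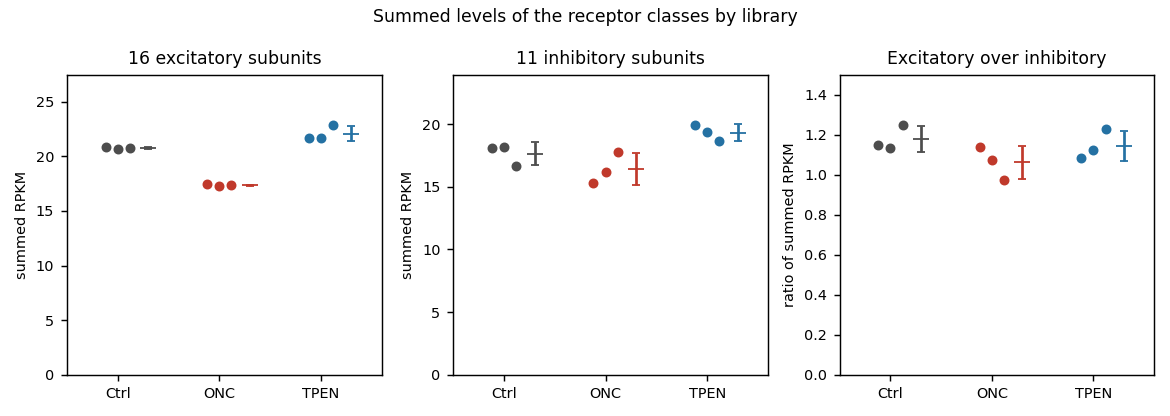
Summed RPKM of the 16 excitatory subunits, left, and the 11 inhibitory subunits, middle, and the ratio of the sums, right, with a point for each library, a bar for the mean and SD of each group, and axes that start at 0. The ONC libraries have excitatory sums of 17.3 to 17.4 RPKM against 20.7 to 22.9 RPKM in the others, and the ratios of the 3 groups overlap.

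Genes for proteins that bind, anchor or traffic these receptors were taken from lists of known partners. Of 32 genes for auxiliary and scaffold proteins of glutamate receptors, 19 were tested. In ONC/Ctrl 4 of them fell (Cacng7, Dlg4, Shank3 and Dlgap3) and 0 rose, beside 6.97% of all tested genes that fell and 11.7% that rose. In TPEN/ONC 0 changed, beside 3.24% that rose and 4.14% that fell, and in TPEN/Ctrl 4 fell (Dlg4, Shank1, Shank3 and Dlgap3) and 0 rose, beside 5.01% and 8.36%. The same shares of all tested genes apply to the counts of the lists and markers that follow. Their median log2 fold changes were -0.15, 0.000060 and -0.099, where those of all tested genes were 0.017, -0.011 and 0.012. Without adjustment, limma gave p under 0.05 for 3 of the 19 in TPEN/ONC, and the share of all tested genes is not given here. Dlgap3, a postsynaptic scaffold gene, averaged 4.41 ± 0.461 RPKM in Ctrl against 2.45 ± 0.182 RPKM in ONC, with 2.26 ± 0.190 RPKM in TPEN (SD, n = 3). It fell in ONC/Ctrl, at a log2 fold change of -0.82 (SE 0.10 and adjusted p = 4.2e-04 by limma), and in TPEN/Ctrl, with one of -0.94 (SE 0.10 and adjusted p = 2.8e-04 by limma). Shank3, which links scaffolds to the cytoskeleton, averaged 1.37 ± 0.176 RPKM, 0.814 ± 0.158 RPKM and 0.531 ± 0.0603 RPKM. It fell in ONC/Ctrl, with -0.69 (SE 0.16 and adjusted p = 0.0155 by limma), a call lost without Ctrl replicate 3 or ONC replicate 3 (limma adjusted p = 0.0565 to 0.0569), and in TPEN/Ctrl, with -1.22 (SE 0.16 and adjusted p = 1.0e-03 by limma). The Dlgap3 and Shank3 libraries of both injured groups lay below all Ctrl libraries. Dlg4, for the scaffold PSD-95, averaged 253 ± 6.30 RPKM, 226 ± 3.67 RPKM and 226 ± 0.802 RPKM in Ctrl, ONC and TPEN, and its decreases in ONC/Ctrl and TPEN/Ctrl passed without any 1 library. That of Cacng7, an AMPA auxiliary subunit gene, in ONC/Ctrl was lost without any 1 library other than Ctrl replicate 1 or ONC replicate 2 (limma adjusted p = 0.0523 to 0.155), and that of Shank1 in TPEN/Ctrl without Ctrl replicate 1, 2 or 3 or TPEN replicate 2 (limma adjusted p = 0.0571 to 0.0776).

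Of 16 auxiliary and scaffold genes of GABA and glycine receptors, 9 were tested. Kctd12, for an auxiliary subunit of GABA-B receptors, averaged 0.217 ± 0.0453 RPKM, 1.09 ± 0.0643 RPKM and 0.575 ± 0.0471 RPKM in Ctrl, ONC and TPEN (SD, n = 3). It rose in ONC/Ctrl, by a log2 fold change of 1.92 (SE 0.16 and adjusted p = 2.5e-05 by limma), and fell in TPEN/ONC, with one of -0.82 (SE 0.16 and adjusted p = 0.0142 by limma). The decrease was lost without ONC replicate 1 or 3 or TPEN replicate 3 (limma adjusted p = 0.0512 to 0.0628). The other 8 tested genes of that list passed the threshold in neither comparison. Kctd12 overlaps the listed gene Gm26778 on the opposite strand. The summed level of 10 microglia and macrophage markers ran from 8.62 to 8.99 RPKM in Ctrl, 47.9 to 49.5 RPKM in ONC and 28.5 to 32.7 RPKM in TPEN, the same order of groups as Kctd12, and its part in that result was not tested. In TPEN/Ctrl, Kctd12 rose, by 1.10 (SE 0.16 and adjusted p = 0.00146 by limma), and the scaffold genes Nlgn2 and Iqsec3 fell, with -0.24 (SE 0.067 and adjusted p = 0.0431 by limma) and -0.22 (SE 0.062 and adjusted p = 0.0424 by limma). The call of Nlgn2 was lost without any 1 library other than Ctrl replicate 1 (limma adjusted p = 0.0564 to 0.132), and that of Iqsec3 without any 1 of the 9 libraries (limma adjusted p = 0.0520 to 0.121).

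Genes for transmitter supply and uptake were listed in the same way. Of 9 genes for glutamate supply and uptake, 8 were tested. Slc1a1, a neuronal glutamate transporter gene, rose in ONC/Ctrl, by a log2 fold change of 1.20 (SE 0.15 and adjusted p = 4.9e-04 by limma), and in TPEN/Ctrl, by 0.84 (SE 0.15 and adjusted p = 0.00597 by limma). Glul, for the glutamine synthetase of Müller glia, averaged 173 ± 3.19 RPKM, 116 ± 0.454 RPKM and 103 ± 3.37 RPKM in Ctrl, ONC and TPEN. It fell in ONC/Ctrl, with -0.57 (SE 0.029 and adjusted p = 9.7e-07 by limma), and in TPEN/ONC, with -0.18 (SE 0.029 and adjusted p = 0.00622 by limma). Slc1a1 and Glul overlap other listed genes. The other 6 tested genes passed the threshold in neither of these comparisons. In TPEN/Ctrl, Glul, Slc1a7 and Slc17a7 fell, and the calls of the latter pair were lost without Ctrl replicate 3 or TPEN replicate 1 or 3 (limma adjusted p = 0.0503 to 0.0876) and without any 1 library other than ONC replicate 3 or TPEN replicate 2 (limma adjusted p = 0.0509 to 0.125). Of 9 genes for GABA and glycine supply and uptake, 5 were tested. Slc32a1, for the vesicular transporter that loads GABA and glycine, averaged 1.08 ± 0.0318 RPKM, 1.10 ± 0.188 RPKM and 1.66 ± 0.186 RPKM in Ctrl, ONC and TPEN. It rose in TPEN/ONC, by 0.56 (SE 0.14 and adjusted p = 0.0433 by limma), a call lost without any 1 library other than ONC replicate 1 (limma adjusted p = 0.0528 to 0.128), and in TPEN/Ctrl, by 0.58 (SE 0.14 and adjusted p = 0.0247 by limma), a call lost without Ctrl replicate 1, 2 or 3 or TPEN replicate 1 or 2 (limma adjusted p = 0.0563 to 0.0837). Slc6a9, for the glycine transporter GlyT1, averaged 23.1 ± 0.780 RPKM, 18.2 ± 0.432 RPKM and 21.4 ± 1.50 RPKM. It fell in ONC/Ctrl, with -0.35 (SE 0.052 and adjusted p = 0.00132 by limma), and rose in TPEN/ONC, by 0.23 (SE 0.052 and adjusted p = 0.0277 by limma). The increase was lost without ONC replicate 1, 2 or 3 or TPEN replicate 1 (limma adjusted p = 0.0634 to 0.0954). Slc32a1 and Slc6a9 each share exon positions with listed genes of the other strand.

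The cascade behind mGluR6 in ON bipolar cells was tested for all 11 of its listed genes. In ONC/Ctrl Gpr179 and Rgs9bp fell and Gnb3 rose, in TPEN/ONC Gpr179 and Trpm1 rose and Gnb3 fell, and in TPEN/Ctrl Gnb3 rose and Rgs9bp fell. Rgs9bp averaged 384, 321 and 342 RPKM in Ctrl, ONC and TPEN, where Gpr179 averaged 4.62, 3.52 and 4.73 RPKM. Which cells the Rgs9bp RNA came from was not tested. Gpr179, for an orphan receptor of this cascade, fell in ONC/Ctrl at a log2 fold change of -0.38 (SE 0.068 and adjusted p = 0.00337 by limma) and rose in TPEN/ONC by 0.41 (SE 0.068 and adjusted p = 0.00622 by limma), with the lowest mean in ONC like Grm6 itself. Trpm1, for its cation channel, rose in TPEN/ONC by 0.41 (SE 0.076 and adjusted p = 0.0123 by limma), a call lost without ONC replicate 2 (limma adjusted p = 0.0529). Gnb3, a G protein subunit shared with cones, averaged 21.0 ± 1.51 RPKM, 66.9 ± 1.03 RPKM and 57.6 ± 1.06 RPKM in Ctrl, ONC and TPEN, with the highest mean in ONC, and its decrease in TPEN/ONC was lost without any 1 library other than Ctrl replicate 1, 2 or 3 (limma adjusted p = 0.0539 to 0.0879).

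Markers of retinal cell types were summed over the libraries for comparison with the receptor genes. The summed level of 10 listed amacrine markers was 37.1 to 39.3 RPKM in Ctrl, 32.3 to 33.6 RPKM in ONC and 39.2 to 42.0 RPKM in TPEN. Of 6 tested, 1 fell in ONC/Ctrl, with a median log2 fold change of -0.027, and 4 rose in TPEN/ONC. The lower amacrine sum in ONC lay mostly in the gene that fell, Slc6a9, at means of 23.1, 18.2 and 21.4 RPKM in Ctrl, ONC and TPEN, while Tfap2b, Dab1 and Slc32a1 had higher means in ONC than in Ctrl. Slc6a9 and Slc32a1 also belong to the list of GABA and glycine supply. The sum of 10 bipolar markers, of which Trpm1 is also in the mGluR6 cascade, was 55.6 to 57.1 RPKM in Ctrl, 49.4 to 51.9 RPKM in ONC and 53.0 to 56.4 RPKM in TPEN. Of 9 tested, 0 rose and 0 fell in ONC/Ctrl, and 1 rose in TPEN/ONC. The ONC libraries had the lowest sums of amacrine, bipolar, rod and cone markers and of the excitatory subunits. The sum of 7 rod markers was 15252 to 16119 RPKM in Ctrl, 13371 to 13688 RPKM in ONC and 14263 to 14486 RPKM in TPEN, and in ONC/Ctrl 5 fell and 1 rose. That of 7 cone markers was 133 to 142 RPKM in Ctrl, 119 to 127 RPKM in ONC and 208 to 211 RPKM in TPEN, where 4 fell and 1 rose in ONC/Ctrl and 6 rose in TPEN/ONC. The sums of RGC, Müller glia and astrocyte markers were highest in ONC, as was that of microglia and macrophage markers given above with Kctd12. Of 9 tested microglia and macrophage markers, 9 rose in ONC/Ctrl, and 0 rose and 5 fell in TPEN/ONC. For the 12 listed RGC markers the sum was 372 to 382 RPKM in Ctrl, 396 to 419 RPKM in ONC and 311 to 324 RPKM in TPEN, led by neurofilament genes. The higher RGC sum in ONC lay mostly in Gap43 (7.79 RPKM in Ctrl and 23.96 RPKM in ONC) and Nefm (49.5 and 60.2 RPKM). Nefl, Sncg, Thy1, Slc17a6 and Stmn2 also had higher means in ONC than in Ctrl. Pou4f1 (0.571 and 0.183 RPKM), Rbpms (0.605 and 0.393 RPKM), Nefh (31.1 and 24.6 RPKM), Ebf3 and Tubb3 had lower means in ONC. Of 9 RGC markers tested, 4 rose and 1 fell in ONC/Ctrl, and 2 rose and 4 fell in TPEN/ONC. That of 8 markers of Müller glia was 505 to 524 RPKM in Ctrl, 573 to 585 RPKM in ONC and 442 to 453 RPKM in TPEN, where 2 rose and 3 fell in ONC/Ctrl and 2 rose and 4 fell in TPEN/ONC. Apoe (172 RPKM in Ctrl and 268 RPKM in ONC), Vim (19.0 and 57.1 RPKM), Slc1a3 and Kcnj10 had higher means in ONC than in Ctrl. Glul (173 and 116 RPKM), Rlbp1 (125 and 111 RPKM), Aqp4 and Sox9 had lower means in ONC. The sum of 2 astrocyte markers was 3.54 to 4.32 RPKM in Ctrl, 23.1 to 24.2 RPKM in ONC and 14.4 to 16.5 RPKM in TPEN, mostly from Gfap. The sum of 4 endothelial and pericyte markers averaged 12.3, 14.0 and 15.5 RPKM in Ctrl, ONC and TPEN, and that of 2 horizontal cell markers was 0.570 to 0.811 RPKM in Ctrl, 0.552 to 0.758 RPKM in ONC and 0.338 to 0.824 RPKM in TPEN. None of the listed markers had a group mean of 0. The part of these cell types in the receptor results was not tested.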

How the data were processed

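RNA of sorted retinal cells was measured by mRNA sequencing in 9 libraries, 3 each of Ctrl, ONC and TPEN, with groups taken from the labels. The authors trimmed reads with Trimmomatic 0.36, mapped them to GRCm38 (mm10) with STAR and deposited RPKM per gene. The kit was stranded and carried molecular identifiers, but the counting program, its use of strand and the collapsing of identifiers are not given in the sources used here. The deposited table also holds the authors' log2 fold changes, p-values and false discovery rates, which were not used, and 0 per-sample columns of other samples.

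RPKM values were tested as log2(RPKM + 0.1) with limma 3.58.1 (trend, R 4.3.3) in 1 fit of the 9 libraries with a coefficient per group, over the 13566 genes whose mean reached 0.5 RPKM, with Benjamini-Hochberg adjustment. Fold changes are on this scale, which understates the change of low genes. RPKM multiplied by gene length gave whole reads to within 0.01 for 100% of values. These reads gave the library totals and served the limma voom alternative (at least 10 reads in 3 libraries). The scripts were tested on simulated data. The smallest exact two-sided permutation p of 3 against 3 libraries is 0.1, so single values were not tested that way.

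The receptor genes with an adjusted p under 0.05 were named in full, as were the highest genes of each subfamily, and in other lists the called genes. Of the genes that match the rule 3 are not reported here, nor is 1 gene of the marker lists. The members and lists were chosen with earlier results of these data known. Leaving out libraries in the fit without the filter was added after seeing the data.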

Additional observations from a re-analysis of the deposited data

How the results depend on the processing

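Counts of called receptor genes depended on the settings. The share of all genes called is given above for the main test, the fit without the filter, the voom fit and quantile normalization. For DEGs it is given for the main test alone. Counts in the other settings, and DEG counts outside the main test, cannot be set against a share of all genes. Excitatory genes that fell in ONC/Ctrl were 3, with 5 in the voom fit, 4 after quantile normalization and 2 to 3 with 1 library left out. Inhibitory genes that fell there were 0, with 1 in the voom fit. DEGs that fell there were 1, with 0 for a pseudocount of 1 RPKM, 0 in a test against a fold of 1.5, 0 at a fold of 2, 2 in the voom fit and 1 to 2 with 1 library left out (2 without ONC replicate 1).
Excitatory genes that rose in TPEN/ONC were 4, with 2 when only the 6 libraries compared were fitted and 2 to 3 with 1 library left out (2 without ONC replicate 2 or any 1 TPEN library). Inhibitory genes that rose there were 0, with 2 without the filter, 2 in the voom fit, 1 with the 6 libraries and 0 with any 1 library left out. The gene that rose with the 6 libraries was Glra2, with means of 0.281 RPKM in ONC and 0.719 RPKM in TPEN. It reached the filter there through its TPEN level, and its mean over the 9 libraries was 0.465 RPKM, so that count is no separate support.
DEGs that rose there were 2, with 1 for a pseudocount of 1 RPKM, 6 without the filter, 1 at a mean of 1 RPKM, 5 in the voom fit, 0 in the test against 1.5, 1 at a fold of 2 and 1 to 2 with 1 library left out (1 without ONC replicate 2, TPEN replicate 1 or TPEN replicate 2).
In TPEN/Ctrl, 2 excitatory genes rose, with 1 at a mean of 1 RPKM. There 1 inhibitory gene rose, with 2 without the filter and in the voom fit. DEGs that rose were 1, with 0 for a pseudocount of 1 RPKM, at a mean of 1 RPKM, in the test against 1.5 and at a fold of 2, and 2 without the filter and in the voom fit.

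The median log2 fold change of excitatory genes in ONC/Ctrl was -0.22, with -0.11 for a pseudocount of 1 RPKM, -0.28 at a mean of 1 RPKM, -0.40 after quantile normalization, -0.31 in the voom fit and -0.26 to -0.16 with 1 library left out. That of inhibitory genes was -0.15, with -0.035 when only the 6 libraries were fitted or any 1 TPEN library was left out, -0.029 without ONC replicate 1 and -0.14 to -0.029 over all libraries left out in turn. Leaving out TPEN libraries changes no ONC/Ctrl fold change of a gene, only which genes pass the filter. Gabrr3, at a mean of 0.498 RPKM over the 9 libraries, then passed it, which moved the inhibitory median to -0.035.
In TPEN/ONC the excitatory median was 0.25, with 0.17 for a pseudocount of 1 RPKM, 0.34 at a mean of 1 RPKM, 0.33 with the 6 libraries, 0.40 for ionotropic receptors and 0.24 to 0.40 with 1 library left out. The inhibitory median was 0.29, with 0.18 for a pseudocount of 1 RPKM, 0.43 in the voom fit and 0.14 (without ONC replicate 1) to 0.29 with 1 library left out.
In TPEN/Ctrl the excitatory median of -0.058 was -0.0018 without the filter and -0.0014 in the voom fit, and turned positive for ionotropic receptors (0.054) and without TPEN replicate 1 (0.053) or 2 (0.051), with a lowest value of -0.064. The inhibitory median was 0.13, with 0.012 after quantile normalization and -0.0045 (without Ctrl replicate 3) to 0.16 with 1 library left out. With the members over 0.5 RPKM alone, the ratio of the sums was 1.25, 1.13 and 1.23 in Ctrl, ONC and TPEN. The ONC libraries, at 1.054 to 1.193, then lay just below the Ctrl libraries, at 1.196 to 1.327, and the TPEN libraries overlapped both. With ionotropic receptors the ratio was 0.769, 0.693 and 0.791 in Ctrl, ONC and TPEN. Other causes of these differences were not tested beyond the settings themselves.

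Small differences that did not pass the test changed sign. With 1 library left out, Grik1 in TPEN/ONC ran from -0.057 to 0.064, Grik5 from -0.089 to 0.027 in ONC/Ctrl and from -0.012 to 0.10 in TPEN/Ctrl, and Grin3b in TPEN/Ctrl from -0.11 to 0.055. Gabra3 ran from -0.032 to 0.20 in ONC/Ctrl (-0.057 after quantile normalization), from -0.15 to 0.10 in TPEN/ONC and from -0.057 to 0.18 in TPEN/Ctrl (-0.068). With only the 6 libraries compared, limma adjusted p was 0.0642 for Gria2 and 0.0811 for Grin2d in TPEN/ONC and 0.0558 for Grm6 in ONC/Ctrl. Grin3b could not be fitted at a mean of 1 RPKM or without TPEN replicate 3, where it lay below the filter. Rescaling moved the median of all genes by at most 0.050.

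The libraries share only a replicate number: deviations of libraries with the same number correlated at -0.062 to 0.027. With the replicate number as a block, 3 excitatory genes rose in TPEN/ONC in place of 4, since Grin2d (0.42) had a limma adjusted p of 0.0836. The block changed no other count of called receptor genes. Among the other lists it ended the calls of Cacng7 in ONC/Ctrl, of Nlgn2, Iqsec3, Slc1a7, Slc17a7 and Slc32a1 in TPEN/Ctrl and of Slc32a1 and Slc6a9 in TPEN/ONC.
Depth limited the 11 genes below the filter, where a library held few reads.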
